A study of Arabidopsis thaliana with 24 samples.

Results

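A set of 9 well-known genes of stomatal guard cells was followed in Arabidopsis leaves treated with abscisic acid (ABA). They were taken by locus identifier from the 22279 genes in each deposited file, and each count was scaled to its library's total (counts per 1000000 reads, CPM). The set holds the potassium channels KAT1 (AT5G46240), KAT2 (AT4G18290) and GORK (AT5G37500), the anion channels SLAC1 (AT1G12480) and ALMT12 (AT4G17970), the kinase HT1 (AT1G62400), the marker gene GC1 (AT1G22690), and the transcription factors FAMA (AT3G24140) and MYB60 (AT1G08810). The question was whether these genes move together between the groups. They would if the libraries differed only in their share of guard cell RNA and each gene were read from guard cells alone.

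Messenger RNA was counted at its 3′ ends in leaves of 3-week-old plants of 4 genotypes, each painted for 4 h with ABA at 10 uM or with DMSO in water as mock. The wetting agent Silwet L-77 was in both at 0.01%. The genotypes were wild type (WT) and a set of 3 lines null for the histone variant H2A.Z that expressed altered HTA11, one of its genes. HTA11 lacked its first 28 residues in Delta28, carried arginine in place of all 9 N-terminal lysines in K>R 1-9, and carried arginine in place of the third lysine alone, residue 13, in K>R 3. No line with unaltered HTA11 in the null background is among the groups, so differences of a mutant line from WT may come from the tail change or from the line's background, which cannot be told apart. Each of the 8 groups had 3 biological replicates, 24 libraries in all. The labels do not say which promoter drove HTA11 or how many transgenic events each line stands for.

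Guard cells come in pairs around a pore and open or close it by taking up or releasing potassium, chloride and malate. KAT1 and KAT2 carry potassium inward during opening, whereas GORK lets it out during closure, and SLAC1 and ALMT12, also called QUAC1, release anions. ABA, the hormone of drought, acts through the kinase OST1, which phosphorylates channels, so that most of the fast response needs no change in messenger RNA.

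Library totals ranged from 1565518 (WT mock replicate 2) to 15086279 reads (WT ABA replicate 3), with a median of 7142427, and 3 reads stood for 0.199 to 1.92 CPM. All 5 mesophyll markers were read in every group, with summed levels from 530.3 to 6920 CPM over the libraries. HTA9, another H2A.Z gene, ranged from 300.8 to 436.4 CPM in WT libraries and from 53.7 to 108.8 CPM in those of the mutant lines. HTA11 was at 392.8 to 914.4 CPM in K>R 1-9 and at 870.3 CPM in the library labelled K>R 3 mock replicate 2, but at 5.87 to 38.4 CPM in the other 5 K>R 3 libraries. It was at 4.70 to 10.3 CPM in WT and at 2.52 to 9.51 CPM in Delta28, so the HTA11 level did not set Delta28 apart from WT. By its HTA11 level the K>R 3 mock replicate 2 library thus goes against its label. On the second principal component, an axis of difference among the libraries, it was at −47.0. The other K>R 3 mock libraries were at −32.5 and −40.5 and K>R 1-9 mock libraries at −0.227 to 43.8. K>R 3 ABA libraries ran from −53.95 to 31.1. Whether the label is wrong was not tested. Without this library the K>R 3 values of KAT2 and GC1, the HT1 mean and the K>R 3 count are also given. Most other K>R 3 values and all ratios include it.

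The deposited gene models limit how well several of the 9 genes were seen. In 99.3% of the single-transcript genes compared with the RefSeq annotation of TAIR10.1, the deposited length was that of the transcript minus 1 exon, the one with the lowest coordinate. For genes on the minus strand this is the last exon, where a 3′ end assay places its reads, and only 12.6% to 17.6% of each library's counts fell on minus-strand genes. KAT1, GORK, SLAC1, FAMA and MYB60 lie on the minus strand, and KAT2, ALMT12, HT1 and GC1 on the plus strand. Levels are therefore compared between libraries for each gene, never between genes. In bulk leaf RNA, fewer cells of a type and less RNA per cell cannot be told apart.

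Between mock and ABA leaves the 9 genes did not move as one. On average over the 4 genotypes KAT1, KAT2, GORK and ALMT12 rose with ABA, by log2 fold changes of 0.89 to 1.89, while GC1 fell by 3.34 on the log2 scale and FAMA fell by 0.65. HT1 had a log2 fold change of −0.78 that did not pass the test. SLAC1 and MYB60 had too few reads to be tested. Of the 7 genes tested, 4 were called higher and 2 lower at an adjusted p under 0.05 (edgeR quasi-likelihood test, Benjamini-Hochberg adjustment over 13874 genes). The background is high in this comparison, in which 43.5% of all genes were called, 22.0% higher and 21.4% lower. The median log2 fold change was 0.89 over the 7 genes and −0.03 over all genes tested.

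**Figure D1:**
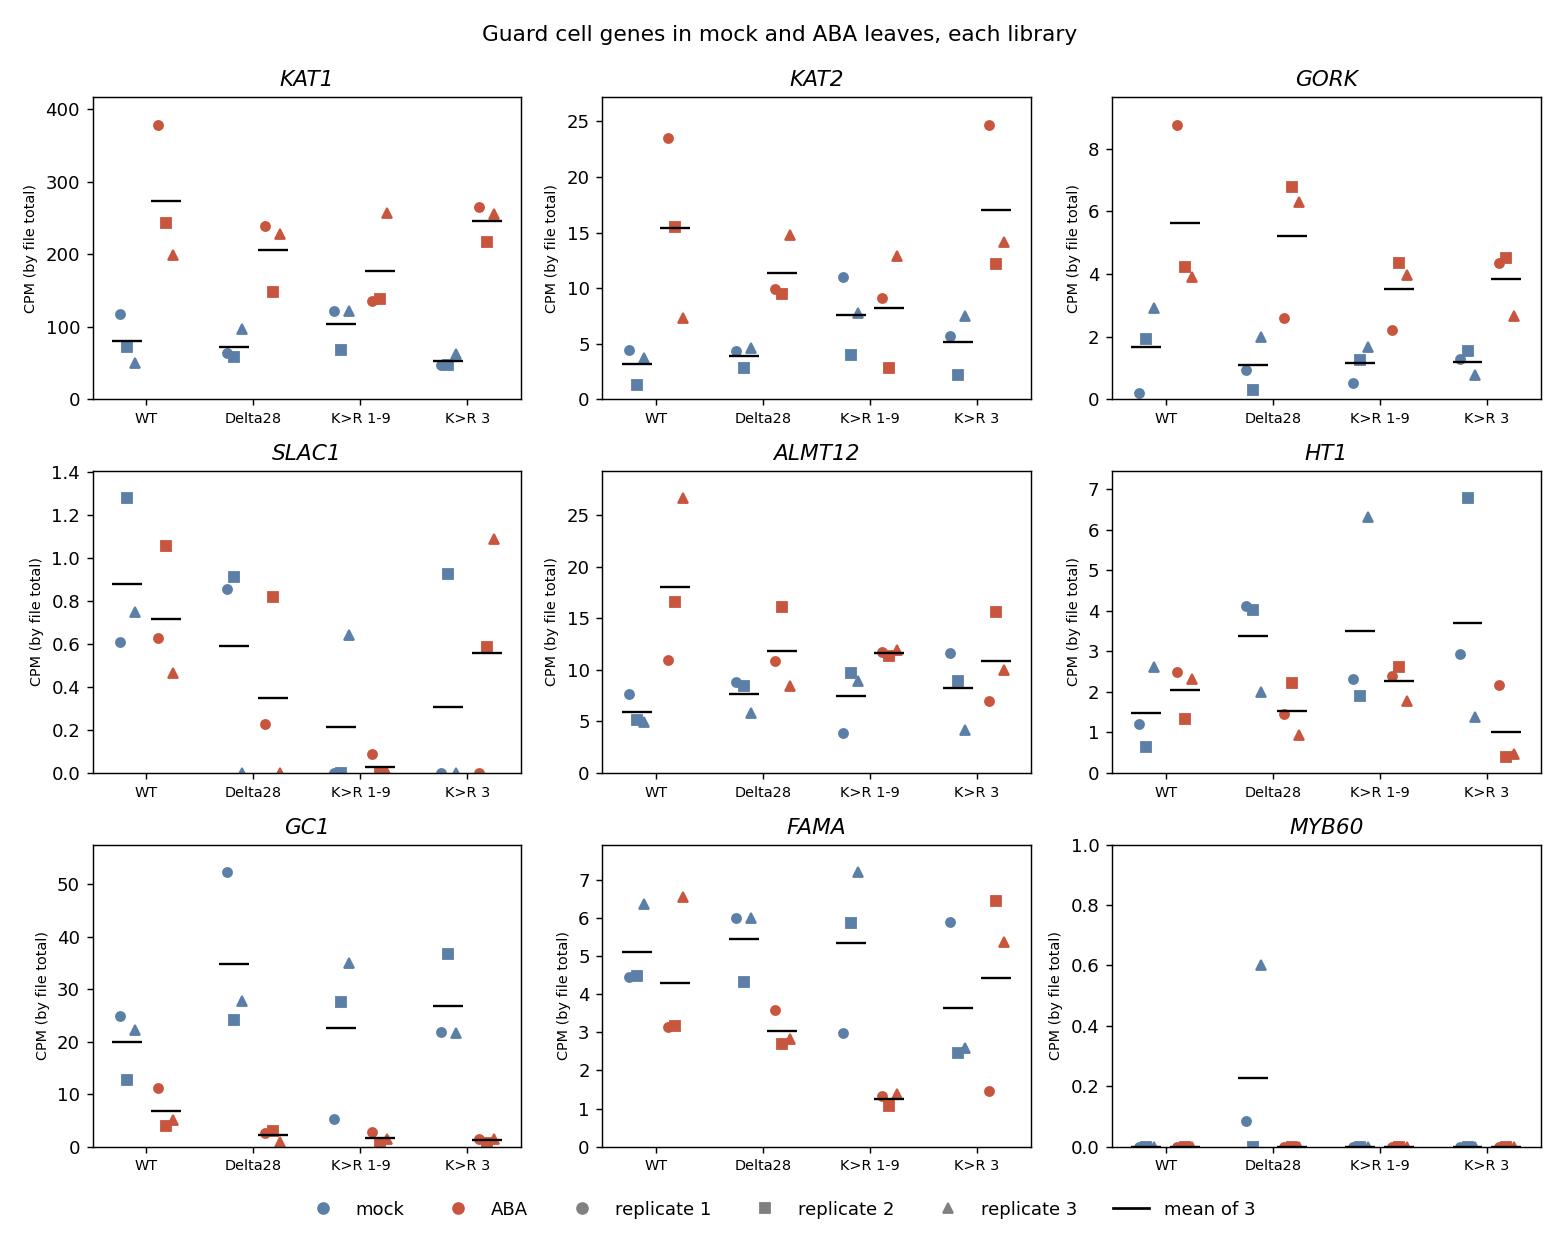
Level of each of the 9 genes in CPM (vertical axis, linear, its own scale for each gene) in mock and ABA leaves of the 4 genotypes. Points are single libraries, with a symbol for each replicate number, and bars are means of 3. KAT1 stands higher in all 12 ABA libraries than in any mock library, GC1 stands lower with ABA within each genotype, and MYB60 is at 0 in 22 of 24 libraries.

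KAT1 encodes the main inward potassium channel of guard cells and had 27840 reads in all libraries. In WT, with values in the order of replicates 1 to 3 as for all genes, it was at 117.5, 72.2 and 49.5 CPM after mock and 378.2, 242.2 and 199.3 CPM after ABA treatment. In Delta28 the mock libraries were at 63.2, 58.5 and 96.3 CPM and the ABA libraries at 238.9, 148.5 and 227.7 CPM. ABA libraries were higher without overlap in both genotypes. KAT1 in K>R 1-9 was at 122.1, 68.1 and 122.2 CPM after mock and 136.1, 137.9 and 257.0 CPM after ABA treatment. In K>R 3 it was at 47.2, 47.5 and 62.1 CPM after mock and 264.7, 216.7 and 254.6 CPM after ABA treatment. Even the lowest ABA library, from K>R 1-9 at 136.1 CPM, stood above the highest mock library, at 122.2 CPM, a separation of 12 libraries from 12 that 1.72% of all tested genes show in this direction. Within a genotype, ABA libraries lay above all mock libraries for 15.6% (WT), 15.2% (Delta28), 13.3% (K>R 1-9) and 13.0% (K>R 3) of tested genes.

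The group means of KAT1 rose from 79.7 ± 34.6 to 273.2 ± 93.4 CPM in WT (SD, n = 3), 3.43 times. The ratio of means was 2.82 in Delta28, 1.70 in K>R 1-9 and 4.70 in K>R 3. The mean log2 fold change was 1.63 (SE 0.18, edgeR adjusted p = 3.5e-07). Within genotypes KAT1 rose in WT (log2 fold change 1.80, adjusted p = 0.00504), Delta28 (1.57, adjusted p = 0.00538) and K>R 3 (2.32, adjusted p = 0.00086) by the same edgeR test. In K>R 1-9 the log2 fold change was 0.85 with an adjusted p of 0.126 in edgeR, although its libraries did not overlap.

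KAT2 encodes a close relative of KAT1 that forms channels together with it and is also known from phloem. In WT it was at 4.46, 1.28 and 3.75 CPM after mock and 23.5, 15.5 and 7.36 CPM after ABA treatment. In Delta28 it was at 4.37, 2.81 and 4.60 CPM after mock and 9.89, 9.47 and 14.8 CPM after ABA treatment. In both genotypes every ABA library was above every mock library. In K>R 3 KAT2 was at 5.71, 2.16 and 7.49 CPM after mock and 24.7, 12.1 and 14.2 CPM after ABA treatment, again without overlap. The K>R 1-9 mock libraries, at 10.98, 3.991 and 7.726 CPM, overlapped the ABA libraries, at 9.09, 2.80 and 12.9 CPM. Of all tested genes, 15.6% (WT), 15.2% (Delta28) and 13.0% (K>R 3) separated in the direction of KAT2.

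The mean log2 fold change of KAT2 was 1.42 (SE 0.28, adjusted p = 0.000348 by edgeR). KAT2 rose in WT (2.14, SE 0.59, adjusted p = 0.034 in edgeR) and in K>R 3 (1.75, adjusted p = 0.0467 in edgeR). In Delta28 the log2 fold change was 1.59 (adjusted p = 0.0585 in edgeR), and in K>R 1-9 it was 0.18 (adjusted p = 0.871 in edgeR). Both calls were thin. Without the library labelled K>R 3 mock replicate 2 the K>R 3 value was 1.40 with an adjusted p of 0.155 in edgeR, and without WT mock replicate 2, the shallowest library, KAT2 was no longer called in WT.

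GORK encodes the outward potassium channel of guard cells and was seen through few reads, 508 in all. In WT it was at 0.203, 1.92 and 2.91 CPM after mock and 8.77, 4.22 and 3.91 CPM after ABA treatment. In Delta28 it was at 0.943, 0.304 and 2.00 CPM after mock and 2.59, 6.78 and 6.29 CPM after ABA treatment. The ABA libraries of both were higher than their mock libraries. GORK in K>R 1-9 was at 0.517, 1.26 and 1.67 CPM after mock and 2.23, 4.34 and 3.96 CPM after ABA treatment. In K>R 3 it was at 1.29, 1.54 and 0.764 CPM after mock and 4.36, 4.50 and 2.65 CPM after ABA treatment. Thus ABA and mock libraries separated in 4 of 4 genotypes. Within a genotype 13.0% to 15.6% of tested genes separated in this direction. The share that did so in all 4 was not counted. Over all 24 libraries only the highest mock library, WT replicate 3, reached into the range of ABA.

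On average GORK rose by a log2 fold change of 1.89 (SE 0.35, adjusted p = 0.000188 by edgeR). Of the single genotypes only Delta28 passed (2.42, SE 0.70, adjusted p = 0.0252 in edgeR). The other genotypes had log2 fold changes of 1.675 to 1.764, with adjusted p values from 0.119 to 0.153 in edgeR. Ratios of the mean levels ran from 3.05 to 4.82, so the outward channel and the inward channel KAT1 had the same direction.

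ALMT12 encodes the rapid anion channel that releases malate during closure. In WT it was at 7.70, 5.11 and 4.97 CPM after mock and 10.96, 16.61 and 26.65 CPM after ABA treatment. In Delta28 it was at 8.83, 8.44 and 5.80 CPM after mock and 10.9, 16.1 and 8.49 CPM after ABA treatment, which overlapped. In K>R 1-9 it was at 3.87, 9.66 and 8.89 CPM after mock and 11.8, 11.4 and 11.9 CPM after ABA treatment. Only WT and K>R 1-9 separated, as did 15.6% and 13.3% of all tested genes in this direction. In K>R 3 mock libraries at 11.6, 8.94 and 4.13 CPM overlapped ABA libraries at 7.02, 15.7 and 10.0 CPM.

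The average rise of ALMT12 was a log2 fold change of 0.89 (SE 0.21, adjusted p = 0.00166 by edgeR). Within genotypes only WT passed (1.62, SE 0.43, adjusted p = 0.0297 in edgeR), where the ratio of mean levels was 3.05. In the mutant lines that ratio was 1.33 to 1.56 and the log2 fold change 0.50 to 0.73. The WT call was lost without WT mock replicate 2, WT mock replicate 3, WT ABA replicate 2 or WT ABA replicate 3, with adjusted p values up to 0.13 in edgeR.

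SLAC1 encodes the slow anion channel on which closure by ABA depends, and 91 reads were counted for it in all, 43 in mock and 48 in ABA libraries. In WT it was at 0.6077, 1.278 and 0.7499 CPM after mock and 0.626, 1.06 and 0.464 CPM after ABA treatment. Of the 24 libraries, 9 had no SLAC1 read, all of them from the mutant lines. ABA and mock libraries overlapped in all 4 genotypes, and no difference was detectable at this depth. SLAC1 overlaps AT1G12470 on the opposite strand over 125 bases of the annotation. It also lies opposite AT1G04953, annotated as its natural antisense transcript and not analysed here, over 775 bases. No source used here says whether the counting used strand, so the reads of SLAC1 are uncertain.

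HT1 encodes a kinase that keeps stomata open at low CO2. It had 447 reads, with mock libraries from 0.639 to 6.78 CPM (median 2.48) and ABA libraries from 0.392 to 2.61 CPM (median 1.98). They overlapped in every genotype. The mean log2 fold change was −0.78 (SE 0.34, adjusted p = 0.0687 by edgeR), with 0.29 in WT, −1.02 in Delta28, −0.54 in K>R 1-9 and −1.84 in K>R 3. The highest mock value came from the library labelled K>R 3 mock replicate 2, and without it the mean was −0.61.

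FAMA encodes a basic helix-loop-helix factor that stops the division of the guard mother cell and sets guard cell identity. In K>R 1-9 it was at 2.97, 5.88 and 7.21 CPM after mock and 1.34, 1.06 and 1.39 CPM after ABA treatment. In Delta28 it was at 5.999, 4.333 and 6.004 CPM after mock and 3.58, 2.69 and 2.83 CPM after ABA treatment. ABA libraries were lower without overlap in these lines, as for 15.7% (K>R 1-9) and 18.8% (Delta28) of all tested genes. WT overlapped, with 4.46, 4.47 and 6.37 CPM after mock and 3.13, 3.17 and 6.56 CPM after ABA treatment. In K>R 3 FAMA was at 5.89, 2.47 and 2.60 CPM after mock and 1.45, 6.46 and 5.37 CPM after ABA treatment, which also overlapped.

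FAMA fell in K>R 1-9 by 2.00 on the log2 scale (SE 0.52, adjusted p = 0.0197 by edgeR), and its average over the genotypes was −0.65 (SE 0.25, adjusted p = 0.0389 in edgeR). The log2 fold change was −0.22 in WT, −0.75 in Delta28 and 0.37 in K>R 3. The average call was lost in 10 of 24 fits that left out 1 library and with no filter on low counts, with adjusted p values up to 0.0988 in edgeR.

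MYB60 encodes a guard cell factor that promotes opening and is known to be repressed by ABA. Only 4 reads were counted, 1 and 3 in Delta28 mock replicates 1 and 3, and 22 libraries were at 0, which allows up to 0.199 to 1.92 CPM in a library. The deposited model lacks 73.7% of the longest MYB60 transcript, the last exon included. Low expression and missing sequence cannot be told apart here.

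GC1 is known as the source of a promoter widely used to drive genes in guard cells, and the annotation places it in the gibberellin-regulated protein family. In WT it was at 24.9, 12.8 and 22.3 CPM after mock and 11.2, 3.99 and 5.06 CPM after ABA treatment. In Delta28 it was at 52.4, 24.1 and 27.8 CPM after mock and 2.51, 2.99 and 0.972 CPM after ABA treatment. By mean level its direction was thus the opposite of that of KAT1, KAT2, GORK and ALMT12 in the same libraries. The channel gene SLAC1 showed no detectable difference there. GC1 in K>R 1-9 was at 5.29, 27.5 and 35.0 CPM after mock and 2.79, 0.728 and 1.52 CPM after ABA treatment. In K>R 3 it was at 21.8, 36.8 and 21.7 CPM after mock and 1.45, 0.701 and 1.38 CPM after ABA treatment. ABA libraries were lower without overlap in 4 of 4 genotypes, a separation that 13.6% (WT), 18.8% (Delta28), 15.7% (K>R 1-9) and 17.3% (K>R 3) of all tested genes show in this direction.

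The mean of GC1 was 20.0 ± 6.38 CPM after mock and 6.75 ± 3.89 CPM after ABA treatment of WT (SD, n = 3). In ABA leaves of the mutant lines it was 2.16 ± 1.05 (Delta28), 1.68 ± 1.04 (K>R 1-9) and 1.18 ± 0.416 CPM (K>R 3). The ratio of mock to ABA means was 2.96 in WT, 16.1 in Delta28, 13.4 in K>R 1-9 and 22.7 in K>R 3. GC1 fell in Delta28, K>R 1-9 and K>R 3, with log2 fold changes of −3.82, −3.59 and −4.30 (adjusted p = 0.000522, 0.0015 and 0.000728 by edgeR). In WT the log2 fold change was −1.64 (SE 0.57, adjusted p = 0.0929 in edgeR). Without the library labelled K>R 3 mock replicate 2, GC1 in K>R 3 fell by 4.06 (adjusted p = 0.00294 in edgeR).

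Reads of GC1 were partly shared with other transcripts, since its expected counts were not whole in 20 of 24 libraries, against 0 of 24 for each of the other 8 genes, and its level is uncertain to that extent. AT1G22700, which overlaps it on the opposite strand over 11 bases, had only 94 reads in all.

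**Figure D2:**
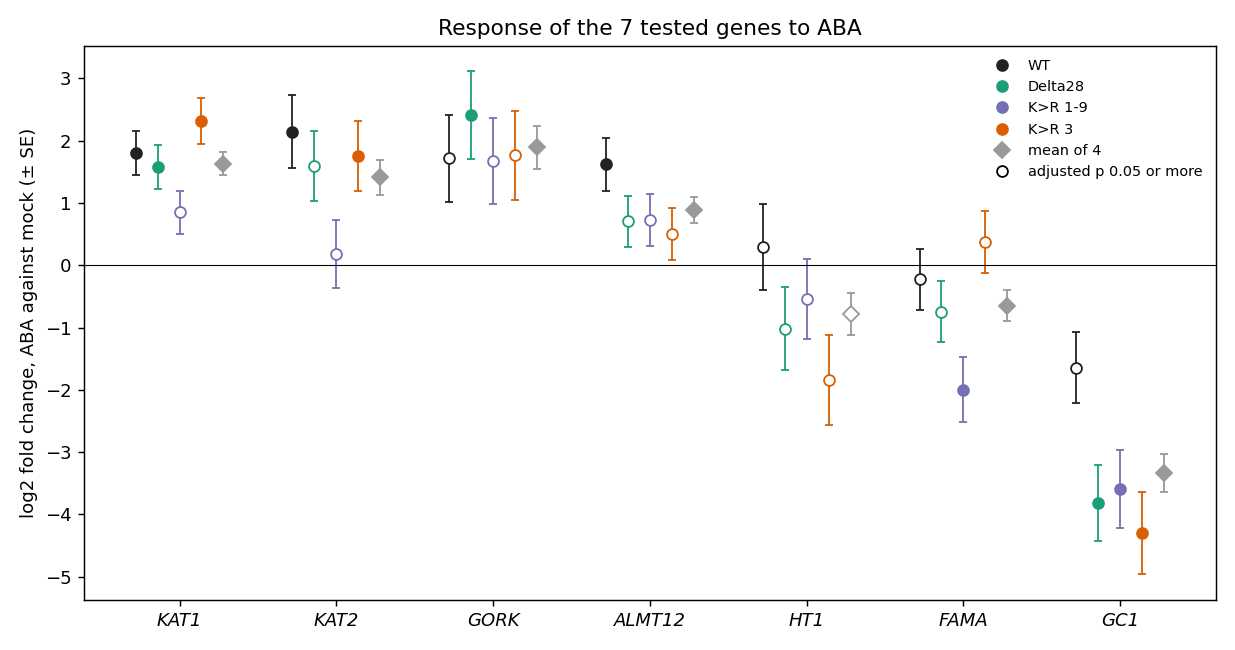
Log2 fold change between ABA and mock leaves (vertical axis, ± SE) for the 7 tested genes in each genotype (circles) and on average over the 4 genotypes (diamonds). The SE is approximate, derived from the F statistic of the edgeR test. Filled symbols have an adjusted p under 0.05 by edgeR. KAT1, KAT2, GORK and ALMT12 lie above 0 and GC1 lies below 0 in every genotype.

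Counted by genotype, 3 of the 7 tested genes were called in WT, all higher, where 5.77% of all genes were called, 4.14% higher and 1.63% lower. Delta28 had 2 called higher and 1 lower, against 14.2% of all genes, 8.69% higher and 5.56% lower. K>R 1-9 had 0 higher and 2 lower, against 9.31%, 5.73% higher and 3.58% lower. K>R 3 had 2 higher and 1 lower, against 10.8%, 6.08% higher and 4.7% lower. With file totals as the only scaling, 646 of the 1426 genes called in K>R 3 were higher, against 844 of 1496 with TMM factors. Without WT mock replicate 2 the WT count was 1, and without the library labelled K>R 3 mock replicate 2 the K>R 3 count was 2. The WT count was also 1 without WT mock replicate 3 or without WT ABA replicate 2. The K>R 1-9 count was 1 without mock replicate 2, mock replicate 3, ABA replicate 1 or ABA replicate 2.

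Whether the genes kept their proportions was read from ratios within a library, as log2 of CPM plus 0.5. The added 0.5 CPM is of the size of the lowest values of GORK, GC1 and HT1 and pulls their ratios in. They are therefore also given without it, as plain ratios of counts that do not depend on library scaling, which was possible because none of the 7 tested genes was at 0 in any library. A change only in the share of guard cell RNA would leave the plain ratios as they were, apart from counting error. This holds only if the genes were read from guard cells alone, which was not tested. The ratio of KAT1 to GC1 was 0.27 to 4.40 (median 1.39) in the 12 mock libraries and 5.016 to 7.499 (median 6.565) in the 12 ABA libraries, a mean rise of 4.69, or 5.03 without the added 0.5. The highest mock value came from K>R 1-9 mock replicate 1, in which GC1 was lowest among mock libraries. The ratios of GORK and of ALMT12 to GC1 also separated all 12 ABA from all 12 mock libraries, with mean rises of 4.68 and 3.91, or 5.53 and 4.29 as plain ratios. KAT2 to GC1 rose by 4.43 on average (4.88 as a plain ratio) and separated within each of the 4 genotypes.

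Ratios among the 4 channels, which were picked here because they rose, changed by less than those with GC1, and that they share a direction is no support for fixed proportions. The log2 ratio of KAT1 to KAT2 changed by 0.26 on average, from a mock median of 3.915 to an ABA median of 4.04, or by 0.15 as a plain ratio. KAT1 to GORK changed by 0.01, or by −0.49 as a plain ratio, and KAT2 to GORK by −0.25, or by −0.65. In these 3 ratios ABA and mock libraries separated in no genotype.

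ALMT12 had the smallest average log2 fold change of the 4 channels, 0.89 against 1.42 to 1.89, a difference given no test. KAT1 to ALMT12 changed by 0.78 (0.74 as a plain ratio), with group means that went from 2.69 to 4.50 in K>R 3 and from 3.76 to 3.80 in K>R 1-9, and KAT2 to ALMT12 by 0.52 (0.58), without separation in any genotype. GORK to ALMT12 changed by 0.77 and separated in 1 genotype, or by 1.23 with separation in 2 as a plain ratio. HT1 to FAMA changed by 0.06 and separated in 1 genotype. Against these regulators KAT1 gained 2.20 over FAMA, with separation in 4 of 4 genotypes, and 2.15 over HT1, with separation in 4 of 4 genotypes, or in 3 as a plain ratio.

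Of the 21 ratios among the 7 tested genes, 14 changed by more than 1 on the log2 scale (15 as plain ratios), and 3 separated all ABA from all mock libraries, each of them with GC1 and in either form. These ratios were given no test, and those of other gene pairs were not counted beside them. Their mean changes largely follow from the fold changes given above, so the counts are no separate support. With ABA 43.5% of all genes were called, so ratios between other genes may change as well. The 3 that separated share GC1 and are not independent. Single values of GORK, HT1 and GC1 rest on a few reads in the shallower libraries.

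**Figure D3:**
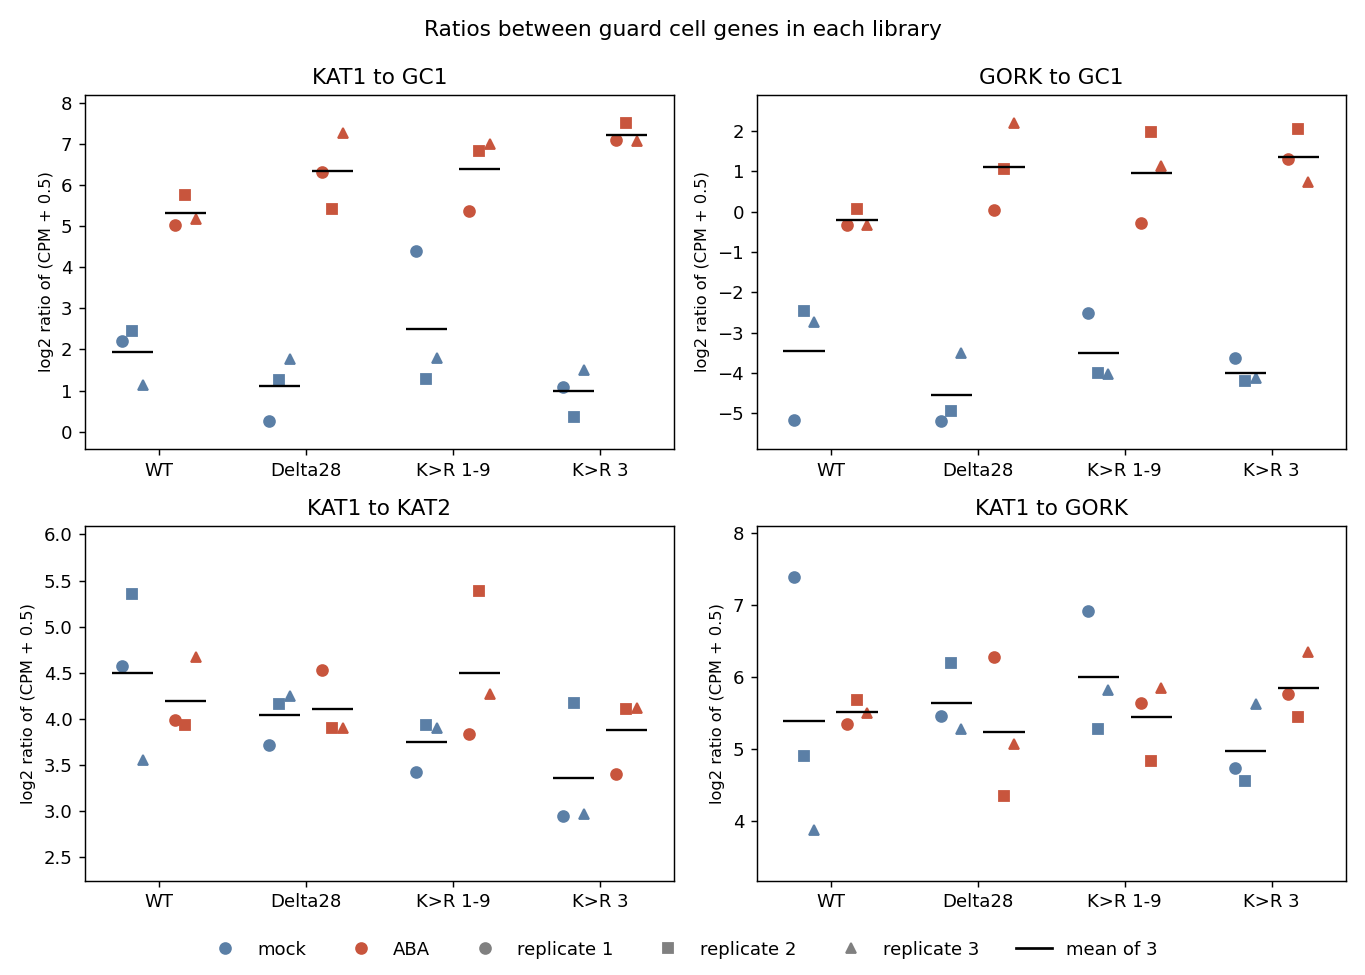
Log2 ratio of CPM plus 0.5 between pairs of guard cell genes (vertical axis) in each library of the 4 genotypes, with bars for means of 3. KAT1 to GC1 and GORK to GC1 separate all ABA from all mock libraries, whereas KAT1 to KAT2 and KAT1 to GORK overlap in every genotype.

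Ordered by mean level over the 8 groups, the 4 ABA groups came first for KAT1, KAT2, GORK and ALMT12, and the 4 mock groups came first for GC1. KAT1 ran from WT ABA through K>R 3, Delta28 and K>R 1-9 ABA to K>R 1-9, WT, Delta28 and K>R 3 mock, and 1 of the 7 neighbouring pairs in that order did not overlap. For GC1 2 of 7 neighbours and for FAMA 1 of 7 did not overlap. The groups were sorted by these same means and the share over all genes was not counted, so these counts only describe. For KAT2, GORK, ALMT12, HT1 and SLAC1 all neighbouring groups overlapped. FAMA and HT1 mixed mock and ABA groups in their order.

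Between genotypes no difference among the 7 tested genes passed edgeR's quasi-likelihood test. In mock leaves 0 were called in Delta28, K>R 1-9 or K>R 3 against WT, where 0.159%, 0.245% and 0.00721% of all genes were called, and 0, 1 and 0 of the 7 had an unadjusted p under 0.05, as did 1232, 2004 and 1794 of the 13874 genes. The 1 was KAT2 in K>R 1-9, with a mock mean of 7.57 ± 3.50 CPM against 3.16 ± 1.67 CPM in WT (SD, n = 3) and a log2 fold change of 1.25 (SE 0.58, adjusted p = 0.326 in edgeR). In ABA leaves 0 were called in each line, with backgrounds of 0.115%, 0.101% and 0.00721%, and 1, 2 and 1 had an unadjusted p under 0.05, as did 1116, 1588 and 1199 of all genes. DESeq2 called 0 of the 7 in the 3 comparisons of mock leaves (0.604%, 2.72% and 0.704% of all genes), 0 in Delta28 and K>R 1-9 ABA leaves (0.637% and 1.3%) and 1 in K>R 3 ABA leaves (0.455%).

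GC1 stood lower than WT in the ABA leaves of each mutant line, with log2 fold changes of −1.31 (Delta28), −1.71 (K>R 1-9) and −2.32 (K>R 3), and adjusted p values of 0.596, 0.28 and 0.339 in edgeR. The ABA libraries of the mutant lines, at 0.701 to 2.99 CPM, all lay below those of WT, at 3.99 to 11.2 CPM. DESeq2 called this difference in K>R 3 (−2.42, adjusted p = 0.0494). FAMA in K>R 1-9 ABA leaves had a log2 difference of −1.62 from WT with an adjusted p of 0.218 in edgeR. Its libraries (1.06 to 1.39 CPM) lay below those of WT (3.13 to 6.56 CPM). The share of all genes that separate in this way between genotypes was not counted, so these separations do not show a difference.

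The response to ABA itself was compared between each mutant line and WT as an interaction. Neither edgeR nor DESeq2 called any of the 7 genes or any other gene (0.0% of all genes in each line). At an unadjusted p under 0.05 edgeR had 1 of the 7 in Delta28, 3 in K>R 1-9 and 2 in K>R 3, and 445, 456 and 512 of all 13874 genes. GC1 was among them in each line, with log2 differences of −2.17 (SE 0.81), −1.95 (SE 0.82) and −2.66 (SE 0.85), each with an adjusted p of 1.0 in edgeR. For KAT2 in K>R 1-9, whose ABA and mock libraries overlapped, the difference from the WT response was −1.96 (SE 0.79, adjusted p = 1.0 in edgeR). Neither response is thus shown to differ from that of WT.

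Genes whose pattern over the 8 group means was most like that of each called gene were found by the root mean square difference of centred log2 CPM. For KAT1 they were LPLAT1 (0.229), AT2G40435 (0.241) and DPD1 (0.254), and for KAT2 PPH (0.267), AT1G62305 (0.271) and SULTR3;4 (0.317). For GORK they were CAD6 (0.181), ALDH2B7 (0.188) and AT1G07040 (0.196), and for ALMT12 GTE2 (0.129), AT4G19520 (0.175) and AT2G15730 (0.178). None of these is another of the 9 genes, which the search left out. FAMA was nearest to AT5G10700 (0.152), AT3G01060 (0.172) and bZIP52 (0.194). The nearest to GC1 were farther, namely AT1G29660 (0.407), the Rubisco small subunit gene RBCS1B (0.440) and PDLP2 (0.466). This measure is not scaled to the size of a gene's changes, which was largest for GC1. The distances therefore do not rank how well patterns match.

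Other transport genes of guard cells were examined from a list. Of 21 listed, 17 were tested and on average over the genotypes 6 were called higher, where 22.0% of all genes were, with a median log2 fold change of 0.21 against −0.03 over all genes. The anion channel gene SLAH3 rose by a log2 fold change of 1.37, the potassium channel subunit KC1, a partner of inward channels, by 1.21, the sugar transporter STP1 by 1.20 and the vacuolar exchanger NHX1 by 1.17. The transporter ABCG22 (0.93) and NHX2 (0.69) also rose. The proton pump genes AHA1 (0.09) and AHA2 (−0.30) did not pass the test, with adjusted p values of 0.432 and 0.19 in edgeR.

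Of 23 signalling genes listed, 18 could be used and all 18 were tested, with 4 called higher, 6 lower and a median log2 fold change of −0.04. Over all genes 22.0% were called higher and 21.4% lower, so the share called higher in the list was near that of all genes. OST1, the kinase that activates SLAC1, rose by a log2 fold change of 1.31, from 16.2 to 38.5 CPM, and the calcium-dependent kinases CPK6 and CPK23 by 0.83 and 0.55. RBOHF, an oxidase that makes reactive oxygen for closure, rose by 0.47. Those that fell were the chloroplast calcium sensor CAS (−1.92), the carbonic anhydrases CA1 (−1.50) and CA4 (−0.99), the blue light receptor PHOT1 (−0.53), CPK3 (−0.36) and the receptor kinase GHR1. GHR1 went from a mean of 2.94 to 0.457 CPM and was at 0 in all 3 Delta28 ABA libraries, so its fitted fold change is not given. CAS, CA1 and CA4 are abundant in mesophyll as well.

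Of 21 genes listed for the stomatal lineage 18 could be used and 9 were tested, with YDA called higher (0.24) and SCRM2 (−1.05) and ER (−0.76) lower, against 22.0% higher and 21.4% lower over all genes. SCRM2 is a partner of FAMA, and ER is a receptor of peptides that space stomata. The lowest and highest log2 fold changes, −1.80 (ERL2) and 1.21 (CDKB1;1), did not pass, and the median was −0.13.

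Markers of other leaf cells also differed between mock and ABA leaves. All 5 mesophyll markers tested were called lower, as were 21.4% of all genes, with log2 fold changes of −1.65 for RCA, −1.50 for RBCS1A, −1.46 for FBA2, −1.43 for LHCB2.1 and −1.35 for LHCA1. Their summed level was 4157 to 6920 CPM in WT mock and 1558 to 2375 CPM in WT ABA leaves. It went from 3116 to 6164 down to 905.8 to 2353 CPM in Delta28, from 3837 to 6265 down to 1278 to 1554 CPM in K>R 1-9, and from 2101 to 3566 down to 530.3 to 1750 CPM in K>R 3. None of the 5 was at 0. GC1 and the mesophyll markers thus had the same direction, and the part of mesophyll RNA in the level of GC1 was not tested.

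Of 9 epidermis markers 8 were tested, 3 called higher and 1 lower (22.0% and 21.4% over all genes), with a median of 0.01. The wax gene CER1 rose by a log2 fold change of 1.85, LTP1 by 0.53 and FDH by 0.50, whereas the epidermal identity factor PDF2 had a log2 fold change of −1.16 and fell. The lowest log2 fold change, −1.23 for the cutin gene GPAT4, did not pass (adjusted p = 0.0508 in edgeR), nor did that of the identity factor ATML1 (0.05). Summed epidermis levels were 1639 to 1919 CPM in mock and 2512 to 2881 CPM in ABA leaves of WT, and PDF1 was at 0 in every library. In Delta28 the sums were 1599 to 1882 and 2521 to 2941 CPM, in K>R 1-9 909.4 to 1605 and 2153 to 2539 CPM, and in K>R 3 1364 to 1930 and 1601 to 2277 CPM. These sums rest mostly on LTP1, with means of 1180 CPM in mock and 1641 CPM in ABA libraries, and on CER1, with 164.0 and 576.0 CPM. They therefore do not show a rise of the list as a whole. The part of epidermal RNA in the levels of the channels was not tested.

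**Figure D4:**
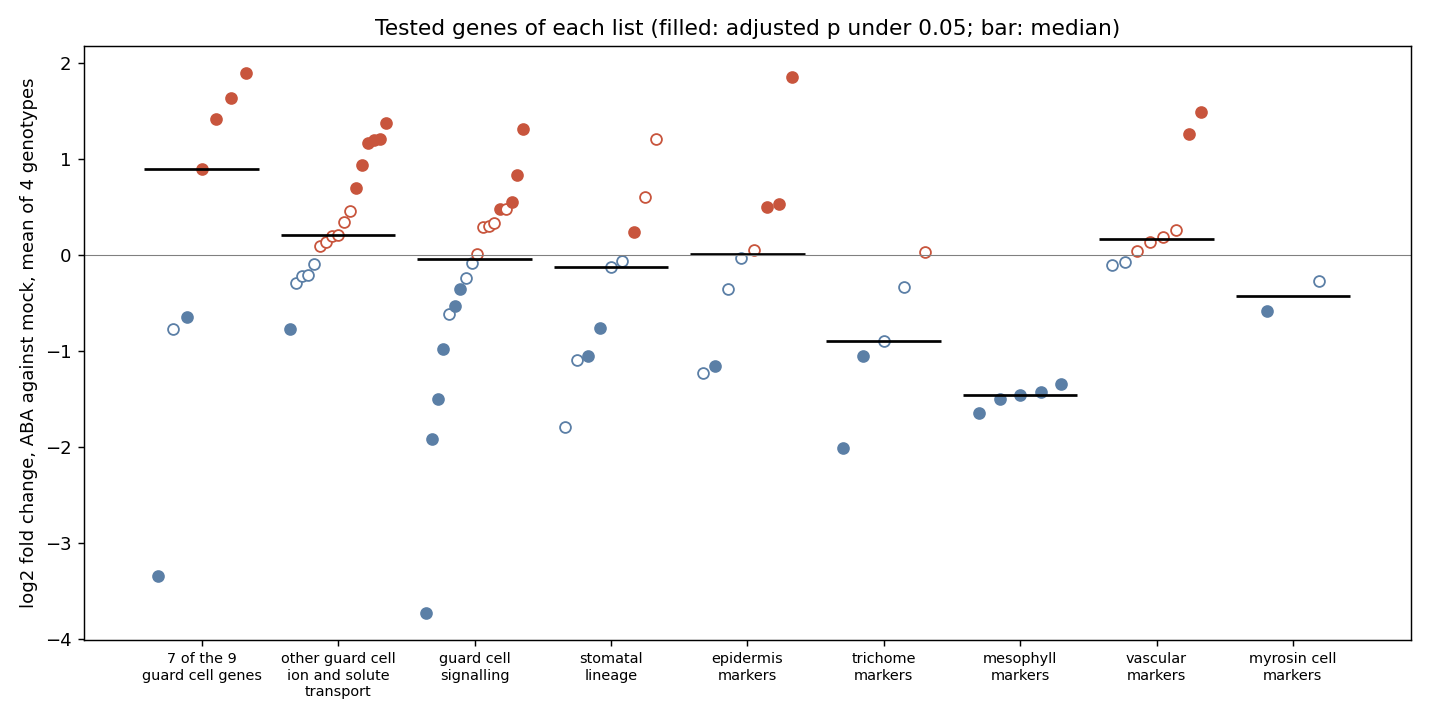
Log2 fold change between ABA and mock leaves, averaged over the 4 genotypes (vertical axis), of every tested gene of each list, with lists along the horizontal axis. Filled points have an adjusted p under 0.05 by edgeR and bars are medians. All 5 mesophyll markers lie below 0, whereas the guard cell lists hold genes on both sides. The lowest signalling point is GHR1, whose fitted value is no measure of size because some libraries are at 0.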

How the data were processed

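The deposited files are RSEM gene tables of 3′ end RNA-seq (QuantSeq FWD), 1 per library, with expected counts, the reads the authors estimated for each gene, unnormalised, per the file headers. Trim Galore, STAR and RSEM were used, per the submitters' processing notes. The sources used here give no versions, settings or genome build, so no coordinates or sequences are given. At most 2.36% of values in a library were not whole.

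Counts were rounded and fitted with edgeR 4.0.16 (R 4.3.3) after filterByExpr, with TMM factors of 0.886 to 1.135, 1 mean per group and all 24 libraries (16 residual degrees of freedom), and tested by its two-sided quasi-likelihood test with Benjamini-Hochberg adjustment over 13874 genes. Genes were called at an adjusted p under 0.05, in 14 comparisons adjusted separately. Each SE is approximate, namely the size of the log2 fold change divided by the square root of the test's F statistic. DESeq2 1.42.0 was an alternative. Levels are CPM by file total, counts of reads, and floors (3 reads) cover counting error only.

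The 9 genes and all lists were chosen with earlier results of these data known. Named beyond the 9 were listed genes called in a comparison or at a list's extreme and the 3 nearest patterns of each called gene; AHA1, AHA2, ATML1 and SUC2 were named after their values were seen. Listed identifiers whose RefSeq symbol differed, and genes without an entry, were not used here. The result of 1 listed transport gene is not reported here.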

Additional observations from a re-analysis of the deposited data

How the results depend on the processing

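Each result was recomputed with other size factors, no filter on low counts, DESeq2, a replicate block, the compared groups alone, plus-strand genes alone, and without each library. KAT1, KAT2, GORK, ALMT12 and GC1 kept their calls on average over the 4 genotypes in 24 of 24 fits that left out 1 library, and no direction of a called value reversed. Of the called genes counted with ABA, main counts of 3 (WT), 3 (Delta28), 2 (K>R 1-9), 3 (K>R 3) and 6 (average) ranged over 1 to 4, 2 to 4, 1 to 2, 2 to 3 and 5 to 7 when 1 library was left out, and the counts against WT and of the interactions stayed at 0 to 0. The WT count was 1 without WT mock replicate 2 and the library labelled K>R 3 mock replicate 2 together. With plus-strand genes alone, which hold 4 of the 9 genes, counts were 1 (Delta28), 1 (K>R 1-9) and 3 (average), since the other genes are not in that fit. With the compared groups alone K>R 1-9 had 1. DESeq2 called 1 gene, GC1, in K>R 3 against WT in ABA leaves, where edgeR called 0; the cause was not tested.

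Single-genotype calls of KAT2, GORK, ALMT12 and FAMA were lost in 4 to 17 of 24 such fits, KAT2 in K>R 3 most often, and that call was also lost with file totals as the only scaling (adjusted p = 0.0506 in edgeR). HT1 passed on average without K>R 3 mock replicate 3 (adjusted p = 0.0377) or K>R 3 ABA replicate 1 (adjusted p = 0.0138). KAT2 in Delta28 passed with DESeq2 (adjusted p = 0.0354) and with the replicate block (adjusted p = 0.0202), and GC1 in WT passed with the WT groups alone (adjusted p = 0.0455) and without K>R 1-9 mock replicate 1 (adjusted p = 0.0421).

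Same-numbered libraries showed no clear pairing. Of 84 such pairs, 16 correlated above 0.1 (median −0.01, against 0.003 for differently numbered pairs). With 3 libraries per group these correlations cannot exclude pairing. With the replicate block the counts with ABA were 3, 4, 2, 3 and 6, and all others 0. With file totals alone the median over all genes shifted to −0.13 in Delta28 with ABA and to −0.19 in K>R 1-9 against WT in ABA leaves. Over all genes the WT count with ABA was 801 by edgeR and 1277 by DESeq2. It was 255 without WT mock replicate 2, the shallowest library, and the library labelled K>R 3 mock replicate 2 together. The K>R 3 count was 1496, or 430 with its groups alone. Low counts limit GORK, HT1 and SLAC1 most; for MYB60 depth and missing sequence cannot be told apart. The ratios without the added 0.5 CPM were chosen after seeing the data.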

Other observations

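Other cell types of the leaf gave mixed values. Of 8 vascular markers tested, AHA3, a proton pump gene of phloem companion cells, rose with ABA by a log2 fold change of 1.26, from 77.8 to 174.4 CPM over all libraries, and the sugar exporter SWEET12 rose by 1.49, whereas none fell, against 22.0% higher and 21.4% lower over all genes (edgeR's quasi-likelihood test, adjusted p = 6.91e-08 and 0.000334). The companion cell marker SUC2 (−0.07) and XCP2 (−0.10), the lowest of the list, did not pass. Of 5 trichome markers tested, TRY, an inhibitor of hair formation, had a log2 fold change of −1.06 and EGL3, a helix-loop-helix factor, −2.01, and both passed, while TTG1 was at 0.03 and GL1 had no read in any library. EGL3 was read at under 6 CPM in every library. Of the myrosinase genes of myrosin cells, whose formation also needs FAMA, TGG1 passed (−0.59, adjusted p = 0.0363 in edgeR) and TGG2 did not (−0.27, adjusted p = 0.418 in edgeR).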
